A study of Mus musculus with 4 samples.

Results

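The 77 genes described here encode proteins of the mitochondrial ribosome and were measured in cultured mouse regulatory T (Treg) cells labelled Junbfl/fl or Junbfl/flCd4-Cre. They were chosen by name alone, as every probe that is not a control and whose gene name in the array files is Mrpl or Mrps followed by a digit, with the brightest probe standing for each gene. Of 36876 gene names with a usable probe, 22476 had a probe that passed the filter on dim signals, and all 77 genes were among them. Their names put 48 in the large subunit (Mrpl) and 29 in the small subunit (Mrps).

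RNA was hybridised to 4 Agilent arrays in one colour, 2 with RNA of Junbfl/fl cells (controls 1 and 2) and 2 with RNA of Junbfl/flCd4-Cre cells (here Cre-labelled arrays 1 and 2). The strain is C57BL/6, every sample carries the floxed Junb alleles, and Cre driven by Cd4 deletes them in T cells only in the second group. Sorted naive CD4+ T cells were activated for 3 days with anti-CD3 (1 μg/ml) and anti-CD28 (0.5 μg/ml). The medium also held TGF-β1 (5 ng/ml) and antibodies that block IFN-γ and IL-4 (5 μg/ml each). The labels give no age or sex. They also leave out whether arrays of one genotype stem from different mice or cultures, and p-values here reflect a spread between arrays that may be technical only.

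Mitochondria make a few core subunits of the respiratory chain from their own DNA, on ribosomes that differ from those of the cytosol. The RNAs of these ribosomes come from mitochondrial DNA, but every one of their proteins is encoded in the nucleus, made in the cytosol and imported. Activated T cells enlarge their mitochondria and raise mitochondrial translation as they grow and divide, and Treg cells rely on respiration, so both subunits must be supplied together with the factors that assemble and serve them.

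The sequences below are those on which a direction or a motif count turns. Array probes are 60 bases long. Their first 30 bases are shown for 3 genes whose readings depended on the probe. By the mean over the 4 arrays, the second Mrpl1 probe lay below the 75th percentile of the arrays' signals. The other probes shown lay above it, as did the second Mrpl1 probe on both controls. The probe positions are on mm9; whether a probe lies in an exon or a UTR was not determined, because no annotation of that build was used.
Mrpl27 brightest probe, chr11:94521032-94521091, plus strand: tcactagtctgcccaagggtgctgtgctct
Mrpl27 second probe, chr11:94521320-94521379, plus strand: ccatctataatctcttcttgtgtgtctgaa
Mrpl27 upstream probe, chr11:94517857-94517916, plus strand: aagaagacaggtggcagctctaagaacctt
Mrpl1 brightest probe, chr5:96693335-96693394, plus strand: tcaaacggcagaagctgcctagaagtgtta
Mrpl1 second probe, chr5:96667890-96667949, plus strand: gaattatttaaaacggcacatgaaattatg
Mrps17 brightest probe, chr5:130224074-130224133, plus strand: tgctcaatggttttcattactgtttctcct
Mrps17 second probe, chr5:130221732-130221791, plus strand: tagtaatactccctaacccgggaccagttc

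Promoters are shown from 250 bases before to 30 bases after the RefSeq start site, on GRCm38.p6. Mrps5 had the smallest p of the 77 genes, Mrpl12 the lowest difference among genes above background on all 4 arrays, and Mrpl27 the highest difference. Mrps5 was added after its values were seen, while the promoters of Mrpl35 and Mrpl1, the lowest and the next highest value, held no match to the 4 motifs searched and are not printed. Capitals mark a match to AP-1 (TGANTCA, the site of the factor that contains JunB) or to ETS (CCGGAAG), read on both strands.
Mrps5, chr2:127587176-127587455, plus strand, 1 AP-1 match: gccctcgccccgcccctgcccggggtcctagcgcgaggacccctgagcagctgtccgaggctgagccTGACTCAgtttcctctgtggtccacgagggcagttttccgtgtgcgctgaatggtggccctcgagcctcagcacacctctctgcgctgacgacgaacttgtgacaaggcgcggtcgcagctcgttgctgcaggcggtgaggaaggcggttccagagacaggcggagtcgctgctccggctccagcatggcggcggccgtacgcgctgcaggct
Mrpl12, chr11:120484387-120484666, plus strand, no match: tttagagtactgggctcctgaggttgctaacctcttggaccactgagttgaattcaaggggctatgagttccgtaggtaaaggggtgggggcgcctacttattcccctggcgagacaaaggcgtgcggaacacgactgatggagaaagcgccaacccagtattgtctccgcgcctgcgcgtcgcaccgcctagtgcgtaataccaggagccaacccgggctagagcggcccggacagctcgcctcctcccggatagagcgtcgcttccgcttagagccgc
Mrpl27, chr11:94653541-94653820, plus strand, 1 ETS match: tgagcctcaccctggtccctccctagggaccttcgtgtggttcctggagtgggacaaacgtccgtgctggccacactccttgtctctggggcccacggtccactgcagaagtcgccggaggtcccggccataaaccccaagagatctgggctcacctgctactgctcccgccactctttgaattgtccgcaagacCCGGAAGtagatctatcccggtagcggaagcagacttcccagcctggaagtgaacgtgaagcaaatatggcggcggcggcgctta

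The targeted gene was read first. One Junb probe (chr8:87501881-87501940, mm9, minus strand) had processed signals of 47.2 and 31.7 in controls, and in Cre-labelled cells 4.11 and 1.47, neither well above background. A brighter probe downstream of it (chr8:87500843-87500902) gave 9791 and 9072 in controls but 1053 and 10078 in the others, so it did not follow the label of array 2, where it read above both controls. Which part of Junb is floxed is unknown here, and every direction below rests on the labels.

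The 4 arrays shared 1 slide and 1 scan time, between 59.3% and 66.3% of their spots were well above background, and no spot that is not a control was saturated. Each array was scaled by the 75th percentile of its own processed signals, which was 151 and 145 in controls and 119 and 101 in the others, so raw signals are lower on the latter for most bright genes. Precision is limited by having 2 arrays per genotype. T cell markers were bright on every array, with a sum over 7 genes of 109734 and 102878 in controls and 69954 and 55157 in the others. Of these 7, 5 were below 0 after scaling, with a median log2 difference of -0.27 and 0.06 against genes of like brightness. Cd3d and Cd3g were higher without overlap, at 0.13 and 0.21, and Cd2 and Thy1 fell by 1.33 and 0.98 on the log2 scale (limma adjusted p = 0.0485 and 0.0418, or 0.0848 and 0.0721 with quantile normalization). The 5 Treg markers did not share a direction: 3 were below 0, 1 was called lower and 1 higher. Foxp3, the Treg transcription factor, read 1287, 1301, 298 and 584 on controls 1 and 2 and Cre-labelled arrays 1 and 2 (limma adjusted p = 0.133). Ctla4 fell by 1.47 (limma adjusted p = 0.0479, or 0.0624 with quantile normalization), Ikzf2 rose by 4.56 (0.0324, or 0.0498), and Il2ra and Tnfrsf18 were at -1.67 and 0.13, neither called. Since an extraction label names colon, epithelial markers were read too: Epcam was at 9.62 to 29.3, and Vil1, Cdh1, Krt19, Krt20 and Muc2 were not well above background on any array.

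Signals of the mitochondrial ribosomal protein genes were lower on both Cre-labelled arrays than on both controls for nearly the whole set. The median scaled log2 signal of the 77 genes was 4.08 on control 1, 3.92 on control 2, 3.41 on Cre-labelled array 1 and 3.31 on Cre-labelled array 2. The median log2 difference (Cre-labelled minus control, as everywhere below) was -0.67 with an SD of 0.092 between arrays of a genotype (n = 2 each), or 62.7% of the control level. The median over all 22476 genes was 0.01. Differences were negative for 76 of the 77 genes, against 49.5% of all genes, and the 2 genotypes did not overlap, with the Cre-labelled arrays lower, for 75 of them (46 large, 29 small), against 38.5% of all genes. One of them, Mrpl35, was above background in controls alone and so passed the filter only by being higher there; without it, 75 of 76 were negative, 74 of 76 were lower without overlap and the median was again -0.67.

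With the 75th percentile scaling and no covariate, no single gene of the set passed the threshold. At an adjusted p under 0.05 (limma, Benjamini-Hochberg over all genes), 0 of 77 were called, against 8.45% of all genes in either direction, 1.43% lower and 7.03% higher. The smallest adjusted p was 0.0534. At an unadjusted p under 0.05, 64 of the 77 were lower (38 large, 26 small) and 0 higher, against 19.1% of all genes lower. A fit without 1 array leaves 1 array in a genotype, so effect sizes alone are given. The median difference of the 77 was -0.54 without control 1 and -0.81 without control 2. It was -0.67 without Cre-labelled array 1 and -0.68 without Cre-labelled array 2. The count of called genes turned on the scaling. With each array's median in place of its 75th percentile, 72 of 77 were called lower, against 33.1% of all genes. That scaling moved the median of all genes to -0.52 and that of the 77 to -1.21, or -0.69 relative to all genes, and put 7436 of 9415 calls lower, against 321 of 1900 in the scaling used here.

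Other ways to make the values kept the direction of the set and also called none of its genes in limma. With quantile normalization 73 of 77 were below 0 (50.7% of all genes) and 69 were lower without overlap (36.2% of all genes), with a median of -0.39 and 0 called, against 0.449% of all genes called lower; 28 had an unadjusted p under 0.05. With normexp background correction and quantile normalization together, 0 were called against 0.369%, and 50 had such a p. With the authors' deposited log2 signals 0 were called against 0.795%, and 47 had such a p. The share of all genes with such a p is not given for these settings, so the counts of 28, 50 and 47 stand without a background.

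**Figure D1:**
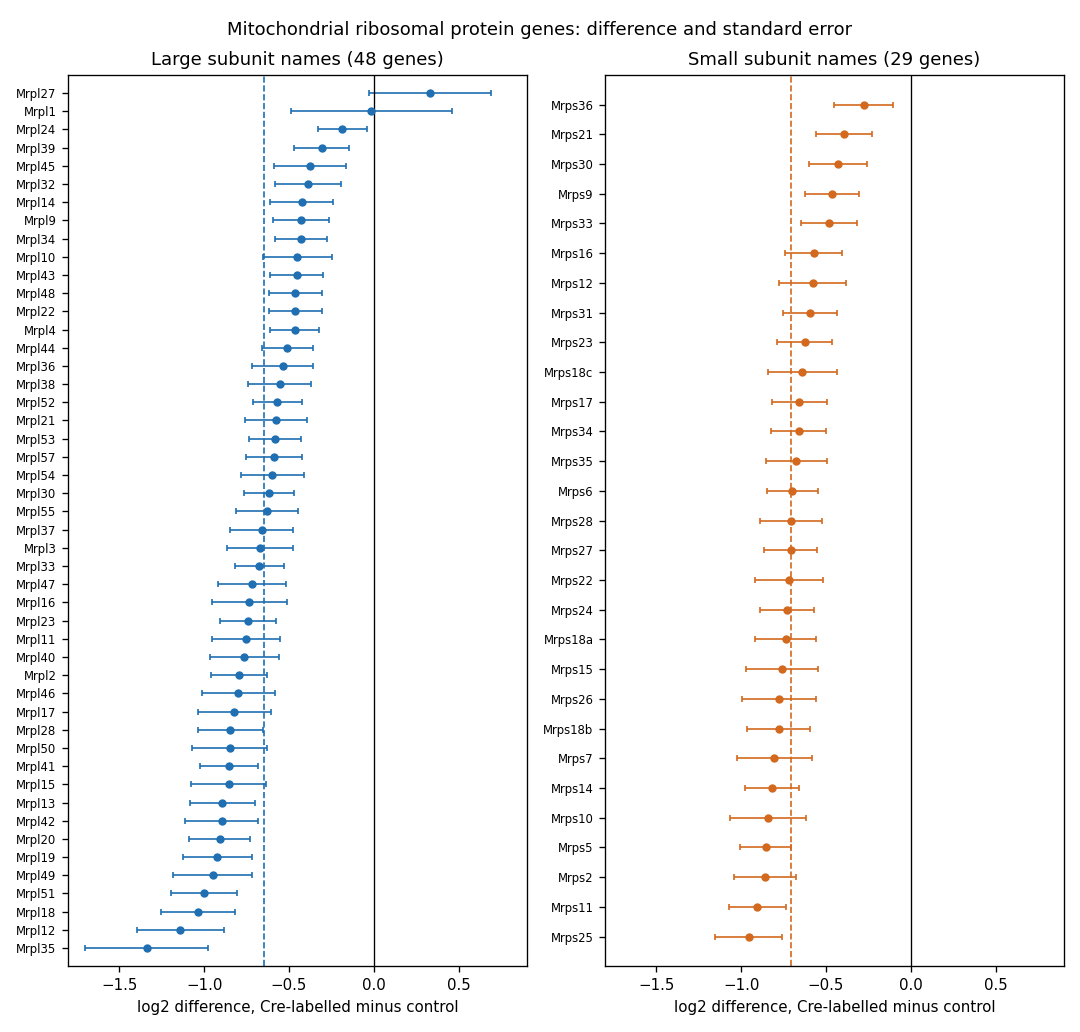
Log2 difference (Cre-labelled minus control) of each of the 77 genes with its standard error, 1 row a gene, for 48 large (left) and 29 small subunit names (right); the dashed line is the subunit's median. All but Mrpl27 lie to the left of 0, and the medians are -0.65 and -0.71.

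The spread among the genes was smaller than that among all genes. The middle of the set (39 genes) lay between -0.82 and -0.51, an interquartile range of 0.31, against 1.18 for all genes. Only 4 genes were at or under 50% of their control level: Mrpl35, whose filter favours a low value, Mrpl12, Mrpl18 and Mrpl51. The small subunit was tighter, with an interquartile range of 0.19 against 0.38 in the large subunit and no value above -0.28. In bulk RNA, fewer cells of a kind and less RNA per cell cannot be told apart.

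The controls also differed from each other. For 74 of 77 genes the scaled signal was higher on control 1 than on control 2, by a median of 0.31 on the log2 scale. Over all genes the median gap was 0.02, and over the other genes of the 5 brightest twentieths it was 0.12. The gap between the 2 Cre-labelled arrays was 0.06, with 54 genes higher on array 1. Cell cycle genes had the same kind of gap between the controls, 0.81 at the median of 15 genes; their part in the values of the ribosomal genes was not tested. Without control 1 the median difference of the 77 genes was -0.54, and without control 2 it was -0.81.

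**Figure D2:**
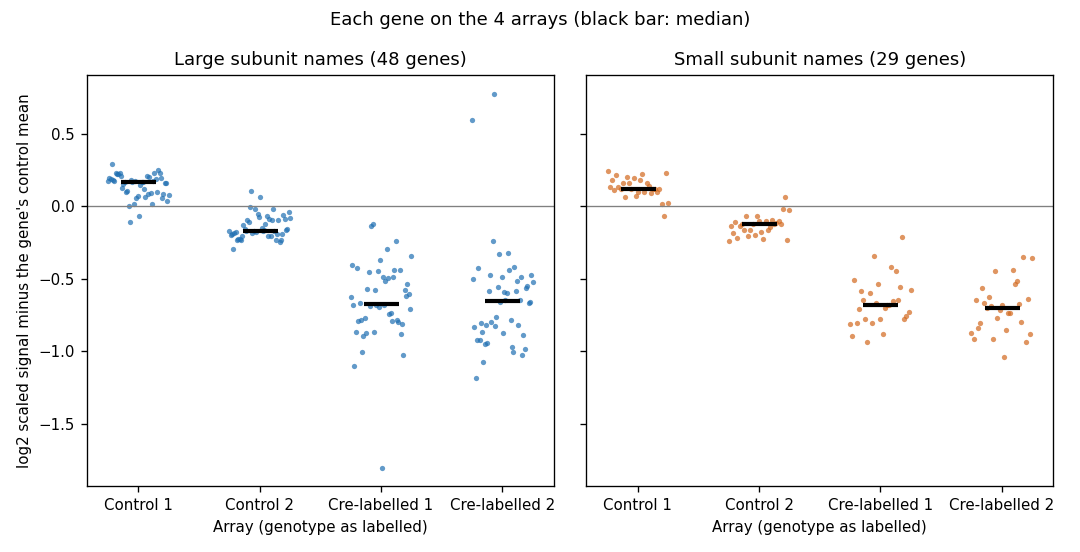
Scaled log2 signal of each gene minus its mean over the 2 controls, 1 point a gene, on the 4 arrays, for the large (left) and the small subunit (right); black bars are medians. Control 2 lies under control 1, and both Cre-labelled arrays lie under both controls for all points but a few of the large subunit.

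Among the large subunit proteins, the lowest well-measured values belonged to Mrpl12, the flexible stalk protein that recruits translation factors and that also binds the mitochondrial RNA polymerase. Mrpl12 (chr11:120349740-120349799, mm9) read 4818 and 3067 in controls and 1450 and 1157 in Cre-labelled cells. The groups did not overlap, and the difference was -1.14 ± 0.25 (standard error; limma adjusted p = 0.0679). Mrpl10, which anchors the stalk, read 672 and 488 against 350 and 277, with a difference of -0.45 ± 0.20 (limma adjusted p = 0.172). Mrpl11, at the stalk's base, gave -0.75 ± 0.20. The 3 stalk genes thus had one sign and differed in size, without a test of the difference between them.

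Mrpl18, a protein of the central protuberance where the 2 subunits face each other, read 3575 and 2491 in controls and 1203 and 968 in the others. Its difference was -1.04 ± 0.22 (limma adjusted p = 0.0634). Mrpl51, one of the proteins that mitochondrial ribosomes have and bacterial ones lack, read 7891 and 5779 against 2683 and 2338, a difference of -1.001 ± 0.20. Both genes were lower on each Cre-labelled array than on either control. Mrpl49 gave -0.95 ± 0.23.

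The lowest fitted value was that of Mrpl35, but its probe was dim. Mrpl35 (chr6:71763258-71763317, mm9) read 13.5 and 14.2 in controls and 3.21 and 5.16, neither well above background, in Cre-labelled cells. It is the one gene of the 77 with this limit, and since only its controls let it pass the filter, its direction and its p carry no weight. Its measured group means differed by -1.34 ± 0.36 (limma adjusted p = 0.0837). With the Cre-labelled signals set no lower than the dimmest signal well above background on each array, the gap was 2.17-fold. The filter favours that gap as well.

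The genes named next, some of those for proteins near the catalytic core and the exit of the tunnel, ranged from -0.84 to -0.31. This is not the range of all such proteins. Mrpl3, which lies close to the peptidyl transferase centre, read 3013 and 2289 in controls and 1420 and 1058 in the others, a difference of -0.67 ± 0.19. Mrpl28 and Mrpl37 gave -0.84 ± 0.19 and -0.66 ± 0.18. Mrpl44, which carries a fold of the RNase III kind, gave -0.51 ± 0.15. Mrpl45, at the tunnel exit, where the ribosome docks to the inner membrane, read 3425 and 2582 against 2037 and 1418, with a difference of -0.38 ± 0.21, among the 6 highest of the set. Mrpl39, which resembles part of a tRNA synthetase, gave -0.31 ± 0.16. None of these genes overlapped between genotypes.

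Mrpl24, Mrpl1 and Mrpl27 were the 3 highest values, and their sign was not stable. Mrpl24 read 5414 and 5138 in controls and 3882 and 3047 in the others, a difference of -0.19 ± 0.14, which turned to 0.15 with quantile normalization. Mrpl1 read 818 and 616 against 372 and 733, a difference of -0.01 ± 0.48, and Mrpl27 read 1979 and 2197 against 1548 and 2441, a difference of 0.33 ± 0.36. For both genes Cre-labelled array 2 stood above array 1 and, after scaling, above both controls. They were the only 2 genes of the set whose genotypes overlapped.

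Of the 4 other tested probes of these 2 genes, 3 were lower without overlap and 1 was higher. The second Mrpl1 probe read 188 and 159 in controls and 87.6 and 71.2 in the others, a difference of -0.70 ± 0.16. The second Mrpl27 probe, downstream of the brightest one, read 2515 and 2067 against 1404 and 1022, a difference of -0.50 ± 0.18. The upstream probe read 650 and 491 against 274 and 262, a difference of -0.65 ± 0.20. On these 3 probes both Cre-labelled arrays were below both controls, although on the upstream probe array 2 was again the higher of the pair after scaling. A dim Mrpl27 probe (chr11:94515618-94515677) read 26.9 and 30.6 against 34.4 and 25.8, a difference of 0.48 ± 0.18 after scaling, with both Cre-labelled arrays above both controls. What sets the brightest probes of Mrpl1 and Mrpl27 apart on 1 array was not tested.

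Small subunit proteins ranged from -0.96 to -0.28, and none of the 29 overlapped between genotypes. Mrps5, part of the channel by which mRNA enters, had the smallest p of all 77 genes. It read 1097 and 1023 in controls and 500 and 378 in Cre-labelled cells, a difference of -0.86 ± 0.15 (limma adjusted p = 0.0534). Mrps11, on the platform of the subunit, read 409 and 326 against 159 and 132, a difference of -0.90 ± 0.17 (limma adjusted p = 0.0563); it was named after its values were seen. Mrps25, which has no bacterial counterpart, read 3475 and 2592 against 1319 and 999, with the lowest difference of the small subunit at -0.96 ± 0.20.

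Mrps12, of the decoding centre, read 3418 and 2530 in controls and 1666 and 1284 in the others, a difference of -0.58 ± 0.20. Mrps2, Mrps7, Mrps16, Mrps22, Mrps28 and Mrps34 are genes in which inherited loss in people impairs mitochondrial translation. Their differences were -0.86, -0.80, -0.57, -0.72, -0.71 and -0.66, with standard errors of 0.16 to 0.22. Mrps27, a protein with pentatricopeptide repeats, which bind RNA, gave -0.71 ± 0.16, and Mrps35 gave -0.67 ± 0.18. All 18 genes chosen by role, from both subunits, lay between -1.14 and -0.38 and did not overlap between genotypes.

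Mrps18a, Mrps18b and Mrps18c are 3 related genes, each for a different ribosomal position. Mrps18a read 1499 and 1149 in controls and 618 and 552 in the others. Mrps18b read 5279 and 4620 against 2085 and 2187. Mrps18c read 3072 and 2220 against 1395 and 1110. The differences were -0.74 ± 0.18, -0.78 ± 0.18 and -0.64 ± 0.20, so the 3 lay within 1 standard error of each other and no group overlapped. Mrps18a and Mrps30 are named for the small subunit but sit in the large one; Mrps30 gave -0.43 ± 0.17. Mrps36 is now known mainly as a part of the alpha-ketoglutarate dehydrogenase complex rather than of the ribosome. It had the highest small subunit value, -0.28 ± 0.17, and read 1898 and 1531 against 1191 and 914.

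The 2 subunits were compared next, since a ribosome needs both. The median difference was -0.65 over 48 large subunit names and -0.71 over 29 small subunit names, and the large median was the higher by 0.06. With Mrps18a and Mrps30 moved to the large subunit and Mrps36 left out, the gap was again 0.06, over 50 and 26 genes. Leaving out Cre-labelled array 2 took it to 0.0066. On the 4 arrays in turn, the median scaled log2 signal was 4.20, 3.95, 3.49 and 3.35 for the large subunit and 3.75, 3.46, 3.32 and 3.18 for the small one. Both subunits were lower on each Cre-labelled array than on either control. By these array medians the large subunit fell more than the small one, the reverse of the order given by the medians of the differences. Which subunit was the lower thus depended on how the medians were taken. The large minus the small median on each array had an SD of 0.022 between arrays of a genotype, which does not measure the spread of the 0.06.

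Bright genes as a class were lower on the Cre-labelled arrays, so the set was also read against genes of like control brightness. Genes were ranked by their mean control signal and cut into 20 equal bands, of which 10 held a gene of the set and the 5 brightest held 63 of the 77. In these 5 bands the median difference was -0.66 for the 63 genes and -0.38 for the 5556 others. Of the others, 81.3% were below 0, 72.5% were lower without overlap and 2.21% were called lower, against 62, 62 and 0 of the 63. The interquartile range was 0.28 for the 63 and 0.53 for the others, and 22.0% of the others were at or under the median of all 77.

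Each gene was then set against the median of the other genes of its own band. The median of these 77 gaps was -0.27 on the log2 scale, with an SD of 0.075 between arrays and quartiles of -0.41 and -0.10, and 65 of 77 were below their band. The median was -0.25 for the large and -0.29 for the small subunit. On single arrays, the median level of the set relative to its bands was 0.06 on control 1, -0.09 on control 2, and -0.35 and -0.30 on Cre-labelled arrays 1 and 2. The set's gap to its bands was thus larger than the spread between arrays of a genotype, a spread that rests on 2 arrays each. Left-out arrays changed the gap to -0.20 (control 1), -0.31 (control 2), -0.29 (Cre-labelled array 1) and -0.27 (Cre-labelled array 2). The control signal enters both the band and the difference; with bands cut by the mean over all 4 arrays the value was -0.31.

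**Figure D3:**
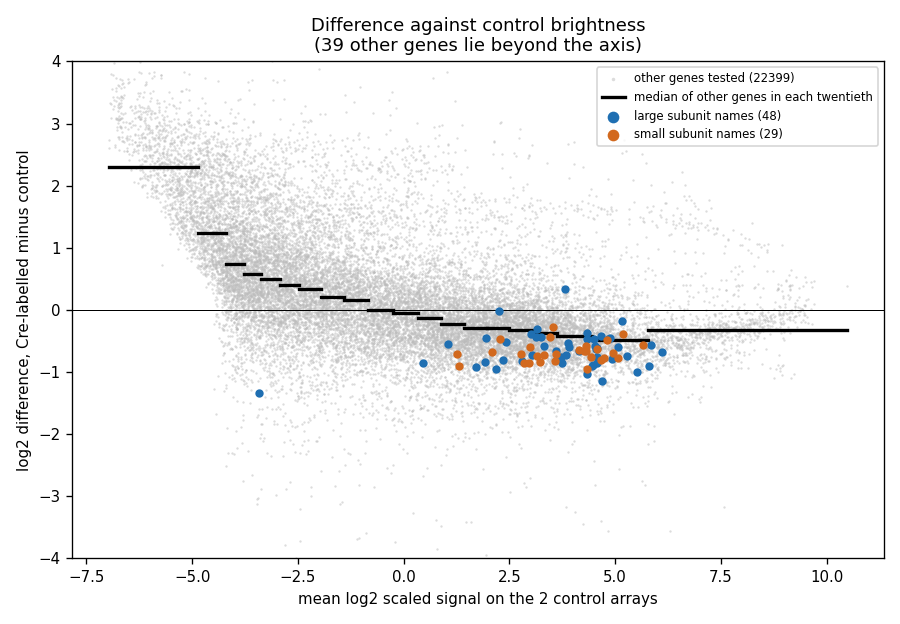
Log2 difference (Cre-labelled minus control) against mean control signal for 22399 other genes (grey), 48 large (blue) and 29 small subunit names (orange); black bars are medians of the other genes in each of 20 bands, and 39 other genes lie beyond the axis. The bars run from 2.30 in the dimmest band to -0.49 in the 19th, and 65 of the 77 genes lie under the bar of their band.

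Genes with more than 1 probe allowed a check of single readings. The set had 119 probes, of which 114 passed the filter, and 28 genes had several that did. Of the 114 probes, 104 were below 0. The 19 further probes brighter than the 75th percentile had a median difference of -0.57, with 18 below 0. The 18 further probes at or under it had a median of -0.18, with 10 below 0. Among genes outside the set, the medians of the dimmest bands were above 0, from 2.30 in band 1 to 0.16 in band 9.

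The largest disagreements were in Mrpl48, Mrps17 and Mrpl27. Mrps17 read 3149 and 2555 in controls and 1460 and 1220 in the others by its brightest probe, a difference of -0.66 ± 0.16. By its second probe, printed above, it read 452 and 629 against 872 and 1128, a difference of 1.32 ± 0.32, without overlap in the opposite direction. Mrpl48 gave -0.46 ± 0.16 and -0.53 ± 0.17 by its 2 bright probes. A dim Mrpl48 probe annotated to another transcript (chr7:107746901-107746960, mm9) read 7.36 and 6.62 against 16.6 and 14.3, a difference of 1.57 ± 0.15; it was well above background on 1 of 2 controls and on both Cre-labelled arrays, so the control level and the size of this difference are uncertain. It was the 1 probe of the 114 called when every probe was tested (limma adjusted p = 0.0283), against 6.77% of all probes. Only its Cre-labelled arrays let it pass the filter, so its direction, its p and this call carry no weight.

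**Figure D4:**
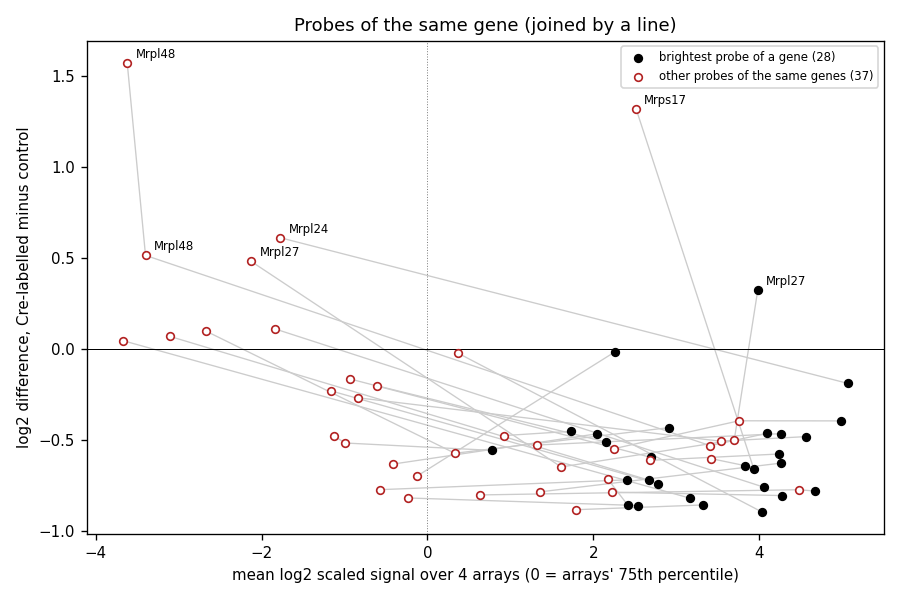
Log2 difference (Cre-labelled minus control) against mean scaled signal over 4 arrays for the 28 genes with several tested probes; filled points are the brightest probe, open points the 37 others, and lines join probes of 1 gene. Differences above 0.25 are named: dim probes of Mrpl48, Mrpl24 and Mrpl27, the second probe of Mrps17 and the brightest of Mrpl27.

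Other genes of mitochondrial translation were read from lists chosen with earlier results of these data known. As a background for these and the later lists, 49.5% of all genes were below 0 in the same fit. The share lower at an unadjusted p under 0.05 was 19.1%. The 6 ribosomal proteins with other names (Dap3, Gadd45gip1, Mrpl58, Chchd1, Aurkaip1 and Ptcd3) were all below 0, with a median of -0.63, 0 called and 4 at an unadjusted p under 0.05. Of 16 translation factors 14 were below 0, with a median of -0.55, and 1 was called. Mrrf, the recycling factor that splits the ribosome after termination, read 1848 and 1860 in controls and 820 and 650 in the others, and fell by 0.91 ± 0.14 (limma adjusted p = 0.0476). Mtif2, the initiation factor, stood apart with 8258 and 8017 against 12768 and 9121, a difference of 0.84 ± 0.16 (limma adjusted p = 0.0600). Among 17 mitochondrial aminoacyl-tRNA synthetases, all 17 were below 0, with a median of -0.49, 0 called and 7 at an unadjusted p under 0.05.

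Assembly factors and enzymes that modify the ribosomal RNA had a median nearer 0. Of 24, 21 were below 0, with a median of -0.36, 0 called, 9 lower at an unadjusted p under 0.05 and -0.08 against their brightness bands. The lowest was Fastkd2, which binds the large ribosomal RNA, at -0.87 ± 0.22, and the highest was Noa1, a GTPase of small subunit assembly, at 0.63 ± 0.15. For 14 genes of mitochondrial DNA maintenance and transcription the median was -0.32, with 10 below 0, 0 called, 5 at an unadjusted p under 0.05 and a median of -0.0043 against the bands. That median was -0.17 without control 1 and -0.11 with quantile normalization. No difference between these lists and the 77 genes was tested.

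Nuclear genes for subunits of oxidative phosphorylation and genes encoded in mitochondrial DNA were read from 2 lists. Of 75 nuclear genes for subunits of oxidative phosphorylation, 75 were below 0 and 74 were lower without overlap, with a median of -0.59 and -0.18 against the bands; 0 were called, and 62 were lower at an unadjusted p under 0.05. The 11 genes encoded in mitochondrial DNA itself, a list added after the files were seen, had a median of -0.06 and 0.27 against the bands, with 8 below 0, and 0 called at either the adjusted or an unadjusted p under 0.05 in the lower direction. The median of these 11 was 0.02 with quantile normalization, with and without normexp, and -0.59 with median scaling, while the medians of the other lists of mitochondrial genes stayed below 0 in all 3 settings. With median scaling, genes called lower were 73 of the 75 subunits, 3 of these 11, 42 of 80 cytosolic ribosomal proteins and 15 of 15 cell cycle genes, against 33.1% of all genes. COX1 read 56091 and 48410 in controls and 38506 and 36516 in the others, a difference of -0.04 after scaling.

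Cytosolic ribosomal proteins, which build the other ribosome of the cell, gave a median of -0.17 over 80 genes, with 66 below 0, 0 called and 3 lower at an unadjusted p under 0.05. They were 0.14 above their brightness bands, where the mitochondrial set was below its own. Their median scaled log2 signal was 8.66 on control 1, while the brightest band starts at 5.77, so the bands match their brightness only loosely. With quantile normalization the median was -0.24 for the cytosolic genes and -0.39 for the 77. The 15 cell cycle genes were the lowest list, all below 0 with a median of -1.67. Top2a, the topoisomerase of dividing cells, fell by 1.79 ± 0.30 (limma adjusted p = 0.0498), and was the 1 called. Among 9 of 10 regulators of nuclear genes for mitochondrial proteins that passed the filter, 8 were below 0 and 1 was called. Myc, a growth factor-responsive transcription factor that drives ribosome production, read 1950 and 1493 against 540 and 511 and fell by 1.27 ± 0.19 (limma adjusted p = 0.0439). Gabpa, an ETS factor, and Nrf1, both classical regulators of such genes, gave -0.29 ± 0.16 and -0.53 ± 0.16. With quantile normalization the limma adjusted p was 0.0981 for Mrrf, 0.0696 for Top2a and 0.0656 for Myc, and with any 1 array left out no gene on the arrays was called.

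**Figure D5:**
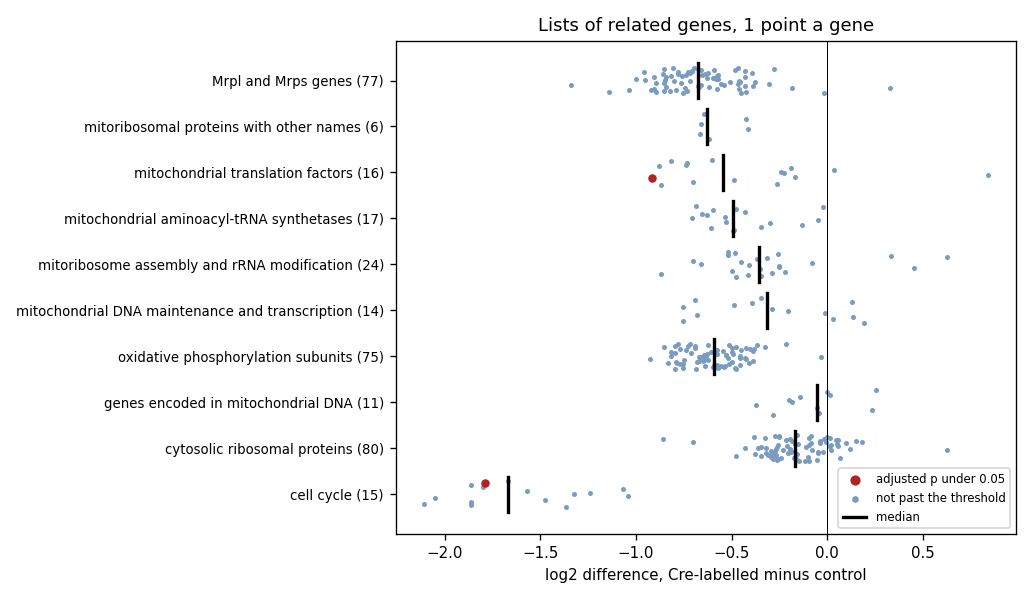
Log2 difference (Cre-labelled minus control) of each tested gene in the 77 Mrpl and Mrps genes and 9 related lists, 1 point a gene, with red for an adjusted p under 0.05 and a black bar for the median. The 77 genes, the 6 with other names and the 75 oxidative phosphorylation subunits have medians of -0.67, -0.63 and -0.59, the 11 genes of mitochondrial DNA -0.06 and the cell cycle genes -1.67.

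Markers of other cell types were read beside these results. B cell markers summed to 456 and 136 in controls and 688 and 396 in the others (6 genes, of which Ms4a1 and Ebf1 were called higher). Stromal markers summed to 30.9 and 25.5 against 79.0 and 44.2 (5 genes, of which Dcn was called higher). With quantile normalization the limma adjusted p was 0.041 for Ms4a1, 0.110 for Ebf1 and 0.0543 for Dcn. Myeloid markers summed to 3950 and 2557 against 7272 and 3250 (6 genes, 0 called; Adgre1 was not well above background on any array). Epithelial markers summed to 70.0 and 73.7 against 57.3 and 60.8 (8 genes, 0 called), and 1 of 3 tested was below 0. Of the tested B cell (5), myeloid (5) and stromal (3) markers, 0 were below 0. Their median differences were 1.14, 1.60 and 1.14, or 0.93, 1.36 and 0.65 against the bands. The filter can pass a dim gene through the genotype where it is higher, so the direction of dim markers carries little weight. The part of other cells in the values of the 77 genes was not tested.

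The promoters of 68 of the 77 genes were matched in the RefSeq table, 42 of the large and 26 of the small subunit, and 4 motifs were counted on both strands in their 300 bases. The ETS motif CCGGAAG was in 24 of 68 (35.3%), against 9.12% of 27025 promoters of the same length. The NRF1 core GCATGCG was in 8 (11.8%), 7 of them of the large subunit, against 3.64%. The E-box CACGTG, the site of Myc and Max, was in 5 (7.35%), against 7.24%. The AP-1 motif TGANTCA was in 3 (4.41%), those of Mrpl33, Mrps25 and Mrps5, against 7.93%. None of the 4 motifs contains another. The match in the Mrps5 promoter is the capital run printed above, and the Mrpl12 window held none of the 4.

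Differences of genes with and without each motif were then set side by side. Genes with an ETS match had a median difference of -0.61 and those without -0.73. The medians were -0.46 with and -0.70 without the NRF1 core, and -0.86 for the 3 genes with AP-1 against -0.66 for the rest. With an E-box the median was -0.66, and without it -0.67. These medians describe the 68 genes and carry no test, and a match is not a site that a factor was shown to bind.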

How the data were processed

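Per the file headers, Agilent Feature Extraction 11.5.1.1 gave each spot a processed intensity, with background subtracted and spatial trends removed inside each array, and with no scaling across arrays. The authors also deposited a table that holds, for each transcript accession, 4 log2 signals, their log2 difference and a p-value; its making is not stated in the sources used here.

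Flagged outlier spots (108 to 215 per array) were left out, spots of a probe were averaged, and 56310 of 56605 probes had a usable spot on every array. Accessions were named through RefSeq (GRCm38.p6). Log2 processed intensity minus each array's 75th percentile was tested with limma 3.58.1 (lmFit, eBayes, R 4.3.3), with no covariate and Benjamini-Hochberg adjustment over 22476 genes. Probes had to exceed background clearly on both arrays of 1 genotype or more, and the brightest such probe stood for its gene. Errors are standard errors of the fit, or SDs between the 2 arrays of a genotype, as stated. Groups of 2 are too small for an exact permutation test to pass the threshold (smallest two-sided p 0.333). The fit was tested on simulated data.

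Named with values are the 6 highest and 6 lowest of the 77 genes, dim genes, the 3 whose probes disagree most, Mrps18a, Mrps18b, Mrps18c, Mrps30, Mrps36 and 18 genes by role. The genes, the lists and these rules were chosen with earlier results of these data known. Alternatives were other scalings, background correction, filters, probe choices, the deposited signals, the replicate numbers as a block and leaving out each array. Tables and figures used Python 3.11.15 and matplotlib 3.10.9.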

Additional observations from a re-analysis of the deposited data

How the results depend on the processing

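The median difference of the 77 genes stayed below 0 under all 12 alternatives, from -1.21 to -0.37. It moved to -0.39 with quantile normalization, -1.21 with median scaling, -0.37 with normexp background and quantile normalization, and -0.41 in the authors' deposited log2 signals, and lay between -0.81 and -0.54 with 1 array left out. Called genes were 72 with median scaling and 0 under the other alternatives but one. With the replicate numbers of the titles as a block, 29 were called, all lower, against 9.30% of all genes called lower; the numbers share only a slide row, and same-numbered arrays deviated together with a correlation of 0.50 over genes in 2 pairs. Slide and scan time could not be fitted as a block, since all 4 arrays share them.

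The gap between subunits moved to 0.10 with normexp and quantile normalization and to between 0.0066 and 0.054 with 1 array left out. Without a filter, and with any array left out, 0 genes of the whole array were called, so the calls of single genes say nothing there.

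Signs of 6 named genes turned. Mrpl1 was at 0.21 with quantile normalization, 0.19 with normexp and quantile normalization, 0.13 in the deposited signals, and between -0.63 (without Cre-labelled array 2) and 0.60 (without Cre-labelled array 1) with 1 array left out. Mrpl24 was at 0.15, 0.15 and 0.15 in the same 3 settings, 0.21 as a mean of probes and 0.61 by its other probe. Mrpl27 was at -0.20 with median scaling, -0.083 as a mean of probes, -0.012 in the deposited signals, between -0.12 (without Cre-labelled array 2) and 0.78 (without Cre-labelled array 1) with 1 array left out, and -0.50 and -0.65 by other probes. Mrpl48 was at 0.27 as a mean of probes and 0.52 and 1.57 by dim probes. The probe at 1.57, which also enters that mean, passed the filter through the Cre-labelled arrays alone. Mrps17 was at 0.33 as a mean of probes, 0.58 in the deposited signals and 1.32 by its second probe. Mrps36 was at 0.0066 with quantile normalization. The cause was not tested.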

Other observations

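In the authors' deposited table, whose log2 difference has the same direction, 74 of 77 rows for these genes were below 0, with a median of -0.41, and 0 were called at an adjusted p under 0.05 (smallest 0.0557), against 641 of all 26594 rows. The median of all rows was -0.04.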
